A study of Sus scrofa with 15 samples.

Results

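The 10 core genes of the interleukin 6 (IL6) pathway, which signals through the shared receptor subunit gp130, were followed in RNAseq libraries of pig oocytes. They comprised the ligands *IL6* and *LIF*, the receptors *IL6R*, *LIFR* and *IL6ST* (the gene of gp130), the kinases *JAK1* and *JAK2*, the transcription factor *STAT3* and the inhibitors *SOCS3* and *PIAS3*. These 10 of the 22516 genes of the deposited gene table were taken by symbol, as the core of the pathway together with genes whose levels were already known to differ between oocyte stages in these data, and 9 of them (all but *SOCS3*) had enough counts to be tested. Because the choice drew on the difference between stages, that difference is described here without a test for these 10 genes, and only the comparison of oocytes with and without a polar body is tested for them.

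In this pathway a cytokine binds its own receptor, IL6R for IL6 and LIFR for LIF, and the complex takes up gp130. The Janus kinases bound to gp130 then phosphorylate STAT3, which enters the nucleus and turns on target genes, among them *SOCS3*, whose product blocks the kinases, while PIAS3 binds activated STAT3. In the ovarian follicle IL6 is known as a product of cumulus and granulosa cells that rises around ovulation with expansion of the cumulus, and LIF is likewise known to promote cumulus expansion and oocyte maturation.

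Germinal vesicle (GV) oocytes were taken from fresh ovarian follicles without culture. The other oocytes were matured *in vitro* for 44 h inside their cumulus complexes, in a medium with gonadotrophins, EGF and follicular fluid, and freed of cumulus cells with hyaluronidase. Those with a first polar body formed the MII group, and those without formed the ‘damaged’ group, a class defined by the missing polar body and not staged further in the labels. Each library was made from polyA RNA of pooled pig oocytes, with 5 libraries per group, and MII and ‘damaged’ oocytes together are called MIX.

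The libraries held 11.96 to 23.6 M estimated counts, apart from GV replicate 3 with 6.40 M, which was taken to be the low-depth GV library that the study left out and is shown here on its own, so that 4 GV and 10 MIX libraries entered the fit. Markers of the oocyte were abundant in every library, with 12 of the 13 listed genes tested (0 upregulated and 5 downregulated from GV to MIX) and a summed level (the sum over the list in 1 library) of 10565 to 12377 CPM in GV, 5437 to 7915 in MII and 6033 to 8006 in ‘damaged’ oocytes (CPM, counts scaled to a common library total and by TMM factors, which equalise the bulk of the genes between libraries). GV libraries had TMM factors from 1.35 to 1.73 and matured ones from 0.794 to 0.922, so the stages differed in composition. Over the 13230 genes tested, the median change from GV to MIX on the log2 scale was -0.16 with these factors and -1.06 on library sizes alone. Each change below is therefore read against that median, and values on both scales are given where they differ in direction.

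*IL6* was the member that differed most between stages. It is encoded on chromosome 9 (91506421 to 91510830 of Sscrofa11.1). In GV oocytes its level was 0.306, 0.156, 0.288 and 0.210 CPM in replicates 1, 2, 4 and 5, from 3 to 6 estimated counts per library. In MII oocytes it was 4.50, 4.88, 5.03, 7.97 and 3.99 CPM (48 to 152 counts), and in ‘damaged’ oocytes 6.25, 7.06, 3.60, 5.51 and 2.32 CPM (35 to 94 counts). Every matured library, with or without a polar body, thus lay above every GV library, and the lowest MIX library was 7.58 times the highest of the 4 GV libraries. GV replicate 3, with 7 counts, stood at 0.666 CPM, higher than the other GV libraries but still below the lowest MIX library. Mean levels were 0.240 ± 0.070 CPM in GV (SD, n = 4) and 5.11 ± 1.67 CPM in MIX (SD, n = 10), a ratio of means of 21.3. The log2 fold change of MIX over GV was 4.25 with an SE of 0.485, and 3.35 on library sizes. *IL6* passed the filter on low counts only through the matured libraries, where it was high, and its fold rests on few GV counts. These levels are relative to the polyA RNA of each library, with no spike-in named. Neither the amount of *IL6* RNA per oocyte nor the part of it that was captured was therefore measured. In pooled oocytes a higher level per oocyte and more oocytes or other cells that carry the transcript cannot be told apart.

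**Figure D1:**
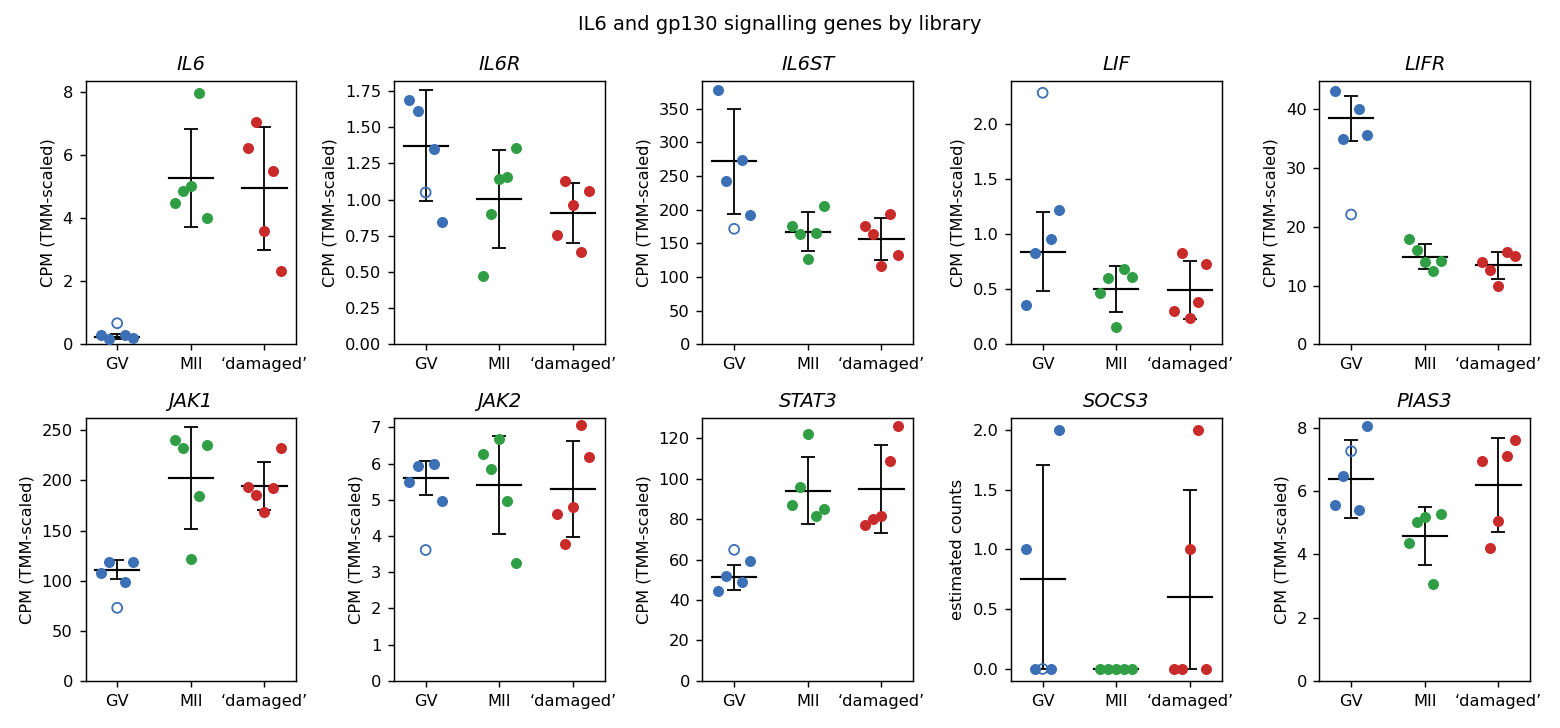
Level of each member in each library, in TMM-scaled CPM (y axis, from 0; estimated counts for *SOCS3*), by group (x axis); each point is 1 library, the bar is the mean and the whiskers ± SD, cut at 0, with the open circle, GV replicate 3, in neither. *IL6* lies at or below 0.306 CPM in the 4 GV libraries and at 2.32 to 7.97 CPM in the matured ones, *LIFR* goes the other way, and MII and ‘damaged’ libraries overlap for each gene with counts.

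Markers of the cells that surround the oocyte are given beside *IL6* because those cells can make it. The cumulus and granulosa list (15 genes, 10 with a count, 3 tested) had no differentially expressed gene (DEG, an FDR below 0.01 with a log2 fold change beyond 2 either way, by limma-voom between MIX and GV) and summed to 14.4 to 28.8 CPM in GV, 10.4 to 23.0 in MII and 9.51 to 20.2 in ‘damaged’ oocytes. Of its defining genes, *LHCGR* and *AMHR2* had no count in the columns used, and the most abundant were *SERPINE2*, *VIM* and *STAR*. *CYP19A1*, *HSD3B1* and *FOXL2* were matched to no gene ID and so were not measured. *CYP11A1*, with at most 1 count in a GV and 7 in a MIX library, was the only gene of the list with a higher mean in MIX. The cumulus expansion list (11 genes, 10 with a count, 8 tested, 2 upregulated, 1 downregulated) summed to 184 to 319 CPM in GV, 800 to 1054 in MII and 763 to 970 in ‘damaged’ oocytes. That sum was mostly *VCAN*, a matrix proteoglycan, with a mean of 197 CPM before and 879 CPM after maturation, and without it the other 9 genes summed to 34.0 to 39.2 CPM in GV and 20.7 to 27.9 CPM in MIX, a split made after seeing the values. *VCAN* and *BTC*, an EGF family ligand, were the 2 upregulated genes (2.20 and 2.41 on the log2 scale) and *EREG*, of the same family, fell by 2.11. *BTC* had at most 8 counts in a GV and 27 in a MIX library. It thus passed the filter on low counts through the matured libraries, and its fold rests on few counts. *PTX3*, which builds the expanded cumulus matrix, had no count in the columns used, and *HAS2*, which makes its hyaluronan, had at most 6.43 counts in a library.

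The leukocyte list (10 genes, 5 tested, 1 downregulated) lay at 12.5 to 17.1 CPM in GV, 7.15 to 9.24 in MII and 8.29 to 9.73 in ‘damaged’ oocytes. The theca, stroma and endothelium list (8 genes, 2 tested, no DEG) lay at 4.89 to 9.41 CPM in GV, 14.1 to 29.1 in MII and 11.9 to 23.3 in ‘damaged’ oocytes, so that every matured library lay above every GV library, as for *IL6*. Most of that sum was *PECAM1*, an adhesion molecule of endothelium and blood cells, at 4.70 CPM in GV and 15.9 CPM in MIX (log2 fold change 1.72, FDR = 1.66e-05 by limma-voom), while *CDH5*, the cadherin that defines endothelium, had at most 1 count in a library. The part of any of these cells in the *IL6* level was not tested. In GV replicate 3 the leukocyte list stood at 41.7 CPM and the cumulus and granulosa list at 32.4 CPM, above each of the other 4 GV libraries.

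The other ligand, *LIF* (chromosome 14, 47221540 to 47239513), was rare at both stages. GV replicates 1, 2, 4 and 5 had 0.357, 0.832, 0.960 and 1.22 CPM, and MIX libraries 0.152 to 0.827 CPM with a median of 0.535 CPM. The groups overlapped, with 7 to 29 counts in the GV and 2 to 13 in the MIX libraries. On the log2 scale MIX differed from GV by -0.73 (SE 0.388), and GV replicate 3 had the highest level, 2.29 CPM.

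The receptors were present before maturation, and none was higher after it. *LIFR*, which pairs with gp130 to bind LIF, had 43.2, 34.9, 40.1 and 35.7 CPM in GV replicates 1, 2, 4 and 5. It had 17.9, 16.1, 14.03, 12.5 and 14.1 CPM in MII and 13.995, 12.6, 9.91, 15.8 and 15.0 CPM in ‘damaged’ oocytes. Every matured library lay below every GV library, GV replicate 3 (22.1 CPM) included. The log2 fold change was -1.45 (SE 0.135), and -2.35 on library sizes.

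*IL6ST* (chromosome 16, 35101304 to 35151832), the subunit shared by all receptors of the family, was the receptor gene with the highest level per length in every group. Its GV libraries had 378, 242, 274 and 192 CPM, its MII libraries 175, 164, 127, 165 and 206 CPM, and its ‘damaged’ libraries 175, 164, 116, 193 and 132 CPM. GV was higher on average, but in CPM the lowest GV library lay within the range of the matured ones. This came to a log2 fold change of -0.72 (SE 0.165), and -1.62 on library sizes.

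*IL6R* (chromosome 4, 95322426 to 95381393), the receptor that binds IL6 itself, was near the limit of what the depth could measure. It had 1.69, 1.62, 1.35 and 0.843 CPM in GV replicates 1, 2, 4 and 5 (20 to 34 counts) and 0.469 to 1.36 CPM in MIX (5 to 22 counts). The groups overlapped in CPM, with a log2 fold change of -0.46 (SE 0.272), and -1.37 on library sizes. The ratio of *IL6* to *IL6R* in TPM (the TPM of Kallisto, in which each transcript is scaled by its length) was 0.996 ± 0.351 in GV (SD, n = 4) and 31.4 ± 13.6 in MIX (SD, n = 10), with no overlap between the groups. Since both values come from 1 library, no scaling between libraries enters this ratio. In TPM *IL6R* itself was lower in every MIX library (0.103 to 0.307) than in the 4 GV libraries (0.469 to 0.790). The same held for *IL6ST*, at 21.6 to 37.3 TPM in MIX and 85.3 to 115 TPM in GV. The share of all genes that do so in TPM was not taken.

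The kinase *JAK1* (chromosome 6, 147320288 to 147567188) and *STAT3* (chromosome 12, 20407316 to 20471091) stood higher in MIX on the TMM scale and at about the GV level on library sizes. *JAK1* had 108, 119, 98.9 and 119 CPM in the 4 GV libraries, 240, 233, 121, 184 and 235 CPM in MII and 193, 186, 169, 192 and 233 CPM in ‘damaged’ oocytes. All MIX libraries lay above the 4 GV libraries, with MII replicate 3 close to the highest of them. The log2 fold change of *JAK1* was 0.82 (SE 0.154) with TMM factors and -0.08 on library sizes, so its direction depended on the scaling.

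*STAT3* had 44.6, 51.9, 49.1 and 59.4 CPM in GV replicates 1, 2, 4 and 5, 81.3 to 122 CPM in MII and 77.2 to 126 CPM in ‘damaged’ oocytes. These groups did not overlap either, nor with GV replicate 3 at 64.8 CPM. Its log2 fold change was 0.87 (SE 0.148) with TMM factors and -0.03 on library sizes. A measure free of this scaling is the ratio to the receptor in each library: *JAK1* to *IL6ST* in TPM was 0.566 ± 0.189 in GV (SD, n = 4) and 1.61 ± 0.323 in MIX (SD, n = 10). *STAT3* to *IL6ST* was 0.303 ± 0.118 in GV and 0.899 ± 0.296 in MIX, and *LIFR* to *IL6ST* was 0.237 ± 0.047 in GV and 0.143 ± 0.025 in MIX. Relative to the shared receptor, both signalling genes thus stood higher in MIX than in GV and *LIFR* stood lower, with no overlap between the groups. The higher ratios went with a lower *IL6ST*, whose mean was 98.4 TPM in GV and 29.5 TPM in MIX. *JAK1* (54.1 TPM in GV and 47.0 TPM in MIX) and *STAT3* (28.8 and 25.8 TPM) were not higher in MIX by TPM, and their groups overlapped.

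*JAK2* (chromosome 1, 216849744 to 217002310), the other kinase that gp130 can bind, showed no separation of the stages on the TMM scale. It had 5.49, 5.94, 5.99 and 4.98 CPM in the 4 GV libraries and 3.27 to 7.08 CPM in MIX, with a log2 fold change of -0.10 (SE 0.195). Without the correction for transcript length, the value was -0.47. On library sizes the change was -0.997, beside -1.06 for all genes. In TPM every MIX library (0.707 to 1.58) lay below the 4 GV libraries (1.99 to 2.78).

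Of the inhibitors, *PIAS3* was measured in every library and *SOCS3* was not. *PIAS3* (chromosome 4, 99463418 to 99475141), which binds activated STAT3, had 5.57, 6.49, 5.39 and 8.07 CPM in the 4 GV libraries, 4.37, 5.03, 5.17, 3.05 and 5.27 CPM in MII and 6.96, 4.19, 5.07, 7.12 and 7.62 CPM in ‘damaged’ oocytes. In CPM all 5 MII libraries lay below the 4 GV libraries, with 5.27 against 5.39 CPM at the nearest, and the ‘damaged’ ones spread over both ranges. Of all genes, 29.4% had every MIX library below every GV library. The share for MII alone was not taken. The log2 fold change against GV was -0.50 for MII and -0.06 for ‘damaged’ oocytes. In TPM every MIX library (1.27 to 3.86) lay below the 4 GV libraries (4.01 to 8.49).

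*SOCS3* (chromosome 12, 3643832 to 3647015), the feedback inhibitor that STAT3 induces, had next to no reads. Its counts were 1, 0, 0 and 2 in GV replicates 1, 2, 4 and 5, 0 in all 5 MII libraries and 0, 0, 1, 2 and 0 in ‘damaged’ oocytes. A library without a count allows up to 3 counts, or 0.143 to 0.284 CPM over the libraries at 0, by counting error alone. No difference in *SOCS3* was detectable at this depth, and none of the 14 libraries reached 3 counts.

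**Figure D2:**
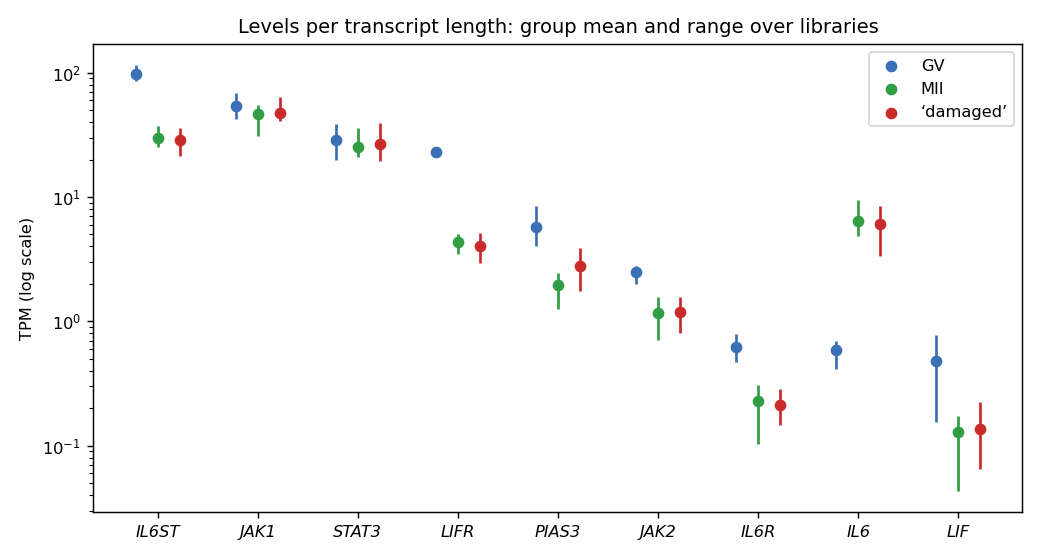
Levels of the 9 members with enough counts, in TPM on a log axis (y), ordered by their GV mean (x); points are group means and lines run from the lowest to the highest library (n = 4 GV, 5 MII, 5 ‘damaged’). *IL6* moves from beside *IL6R* and *LIF* at about 0.590 TPM to 6.37 TPM in MII, beside *LIFR*.

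Per transcript length, the order of the members differed between the stages. In GV oocytes *IL6ST* stood first at 98.4 TPM, before *JAK1* at 54.1 TPM and *STAT3* at 28.8 TPM, whose spread reached that of *LIFR* at 22.9 TPM. *PIAS3* (5.78 TPM) and *JAK2* (2.50 TPM) followed, and *IL6R*, *IL6* and *LIF* came last before *SOCS3*, at 0.627, 0.590 and 0.476 TPM, within 1 SD of each other. In MII oocytes *JAK1* led at 46.7 TPM, and *IL6ST* (30.03 TPM) and *STAT3* (25.2 TPM) did not differ beyond their spread.

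*IL6* came next in MII at 6.37 TPM, not apart from *LIFR* at 4.31 TPM, and above *PIAS3* (1.96 TPM), *JAK2* (1.17 TPM), *IL6R* (0.228 TPM) and *LIF* (0.128 TPM). The ‘damaged’ oocytes had the same order, from *JAK1* at 47.2 TPM through *IL6* at 6.06 TPM to *LIF* at 0.135 TPM. *IL6* was the member whose rank differed most, from rank 8 in GV to rank 4 in both matured groups.

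**Figure D3:**
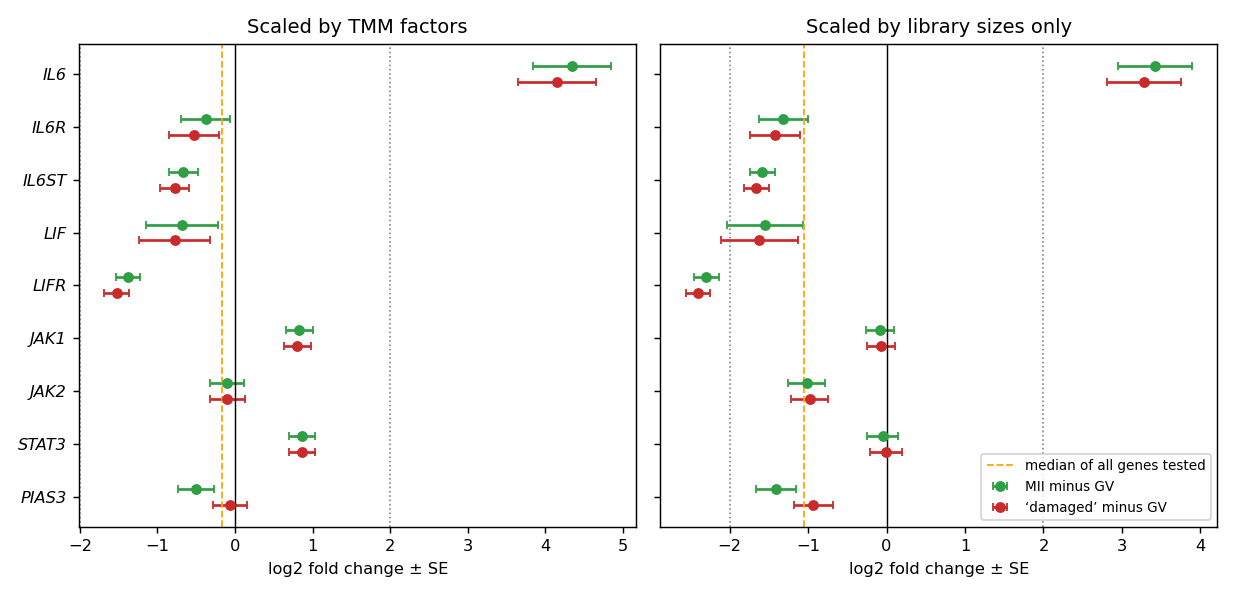
Log2 fold change ± SE (x axis) of 9 members in MII and in ‘damaged’ oocytes against the same 4 GV libraries, scaled by TMM factors (left) and by library sizes (right); dotted lines mark a change of 2 and the dashed line the median of all genes tested. *JAK1* and *STAT3* lie between 0.81 and 0.87 on the left and near 0 on the right, and *IL6* lies beyond 2 in both.

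On the TMM scale, 3 of the 9 members tested (*IL6*, *JAK1* and *STAT3*) had every MIX library above the 4 GV libraries, against 24.3% of all genes. On the same scale 1 (*LIFR*) had every MIX library below, against 29.4% of all genes. Of all genes, 4.27% were DEGs upwards and 16.8% downwards, and by the same limits 1 member (*IL6*) stood past them upwards and 0 downwards. The members were chosen partly for this difference, so these counts describe the choice and test nothing. The median over the 9 was -0.28, beside -0.16 for all genes. Since MII and ‘damaged’ oocytes share their GV libraries, their values stand side by side: 4.35 and 4.16 for *IL6*, -1.38 and -1.53 for *LIFR*, 0.83 and 0.81 for *JAK1*, and 0.86 and 0.87 for *STAT3*.

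Whether the pathway differed with the polar body was tested between MII and ‘damaged’ oocytes. None of the 9 members passed the thresholds by limma-voom on either scale, with the libraries treated as unpaired, and none did with a replicate block. *IL6* was 0.19 higher in MII on the log2 scale, with a 95% interval of -0.38 to 0.76 (unadjusted p = 0.495, limma-voom). A difference of the size seen between the stages lies outside this interval, and only differences between -0.38 and 0.76 lie within it.

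The tightest intervals were those of the abundant genes. The difference was 0.00 for *STAT3* (-0.33 to 0.33), 0.02 for *JAK1* (-0.32 to 0.36), 0.15 for *LIFR* (-0.20 to 0.49) and 0.11 for *IL6ST* (-0.27 to 0.49). The rare genes left wider limits, with 0.15 for *IL6R* (-0.56 to 0.87) and 0.10 for *LIF* (-0.95 to 1.14), and *JAK2* lay at 0.00 (-0.47 to 0.46).

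*PIAS3* came nearest to a difference, at -0.44 (-0.91 to 0.03), that is, lower in MII, with an unadjusted p of 0.064 by limma-voom. It did not pass once adjusted over all genes. Of the 13230 genes, 0 were DEGs between MII and ‘damaged’ oocytes by limma-voom and 194 (1.47%) had an unadjusted p under 0.05, while edgeR and DESeq2 gave 263 and 251 such genes. A replicate block gave 353 such genes of 13230 tested. There were 459 of 18953 without a filter on low counts, 52 of 7465 with the 10 CPM filter and 313 of 13208 without MII replicate 5. In none of these was a gene a DEG.

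The members with several annotated transcripts were also examined by the share of each transcript in the TPM of its gene, as a description. *IL6*, *LIF*, *LIFR* and *SOCS3* had a single transcript with counts. *JAK2* differed most in its makeup between the stages, while its total level on the TMM scale overlapped. Its transcript ENSSSCT00000034678.4 (effective length 6274 bases) held 90.4% ± 4.45 in GV (SD, n = 4; 85.0 to 95.6%) and 25.5% ± 17.3 in MIX (SD, n = 10; 5.54 to 55.9%). The shorter ENSSSCT00000034494.4 (2790 bases) had no count in GV and 36.7% ± 17.8 in MIX, between 4.87 and 57.5% in each of the 10 libraries. ENSSSCT00000005748.5 held 4.63% in GV and 24.5% in MIX. These shares rest on few reads, 554 estimated counts over 4 GV and 694 over 10 MIX libraries, of which the shorter transcript had 160, and on the way Kallisto divides reads shared by transcripts.

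In *IL6ST* the main transcript ENSSSCT00000082641.2 held 93.2% ± 1.35 in GV and 82.9% ± 5.72 in MIX. ENSSSCT00000099146.1, of only 278 bases, held 3.53% in GV and 9.74% in MIX, from 34.6 and 103 counts in all. By estimated counts in place of TPM, the share of the main transcript differed by -5.23 points rather than -10.31. In *STAT3*, ENSSSCT00000057478.3 was the main transcript at both stages, with 60.9% ± 7.53 and 51.8% ± 7.90, while ENSSSCT00000101406.1 stood at 1.61% in GV and 15.5% in MIX, and *JAK1* kept 2 transcripts of near-equal share, 49.1% and 49.1% in GV.

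**Figure D4:**
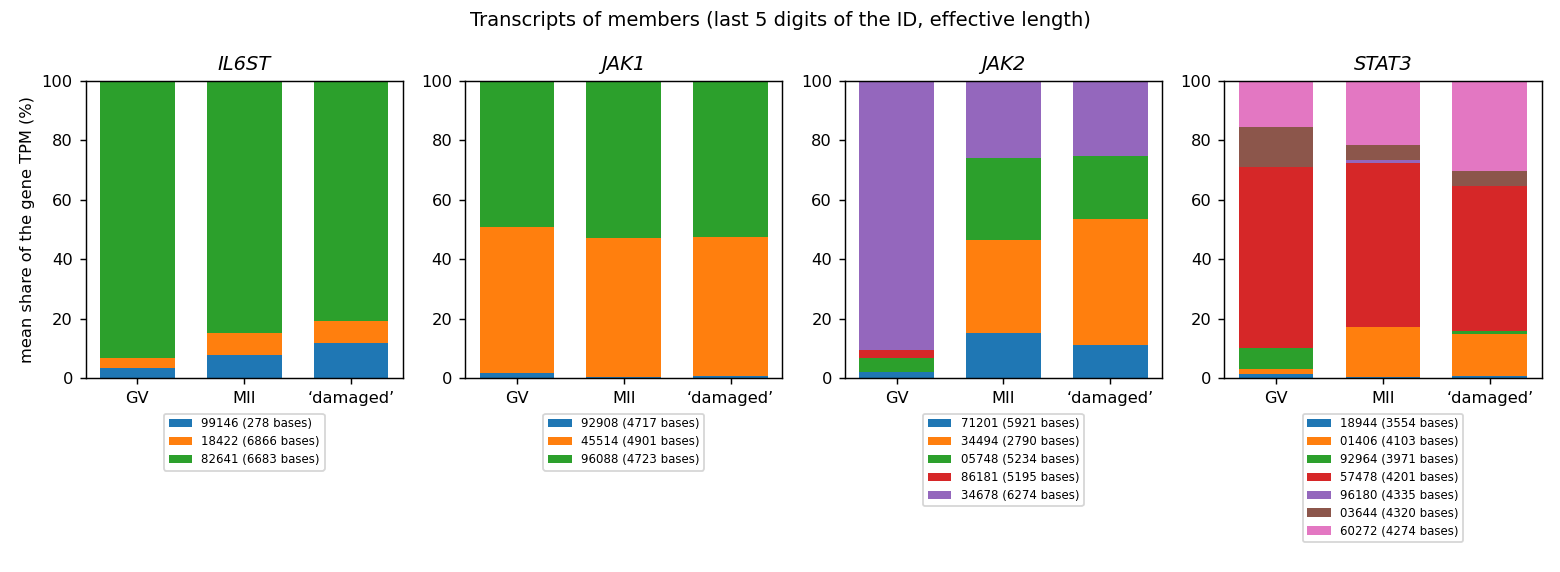
Mean share of each transcript in the TPM of its gene (y axis, percent) in GV (n = 4), MII (n = 5) and ‘damaged’ (n = 5) oocytes for *IL6ST*, *JAK1*, *JAK2* and *STAT3*; colours are transcripts, named by the last digits of their ID with their effective length. The main *JAK2* transcript of GV oocytes, at 90.4%, is at about 25.5% in both matured groups, and the *JAK1* shares are alike in all 3.

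Around the members, 71 further genes of the pathway were listed, of which 48 had enough counts to be tested between MIX and GV. By limma-voom 1 of the 48 was upregulated and 8 were downregulated, beside 4.27% and 16.8% of all genes, and the median log2 fold change of the 48 was -0.22, beside -0.16. Among the downregulated, *CEBPB*, *STAT6*, *IL11RA*, *BCL6* and *CISH* had at most 6 counts in a MIX library. They passed the filter on low counts only through the GV libraries, where they were high. On library sizes 0 were upregulated and 16 downregulated, beside 0.348% and 28.6% of all genes. With an FDR under 0.01 on both scales and whatever the fold, 5 were higher and 19 lower, beside 11.9% and 37% of all genes.

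Of 8 other ligands of gp130, 2 were tested and neither was a DEG. Both, named after their values were seen, were lower in MIX with an FDR under 0.01 by limma-voom on both scales. *EBI3*, a subunit of IL27, was at 2.42 ± 1.16 CPM in GV and 0.575 ± 0.257 CPM in MIX, and *CNTF*, a neurotrophic ligand, at 2.33 ± 0.840 and 0.960 ± 0.556 CPM, with log2 fold changes of -1.93 and -1.37. *IL11*, *OSM*, *CLCF1* and *IL27* had at most 5 counts in any of the 14 libraries. Of 7 other receptors and shedding proteases, 5 were tested and 1 fell. *IL11RA*, the receptor of IL11, fell by 3.80 on the log2 scale, with 1.70 CPM in GV and 0.112 in MIX oocytes (at most 4 counts in a MIX library).

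Of 8 other JAK and STAT genes, 7 were tested, 3 fell and none rose past the fold threshold. *STAT5A*, used by growth hormone and prolactin receptors, fell by 4.18 (16.7 to 0.913 CPM). *STAT6*, used by the IL4 receptor, fell by 4.05 (0.706 to 0.014 CPM), with at most 1.01 counts in a MIX library, so its fold depends on the prior count. *STAT2*, which acts in interferon signalling, fell by 2.24 (43.8 to 9.31 CPM).

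All 13 other inhibitors were tested, and only *CISH*, a SOCS family member that STAT5 induces, was a DEG. It fell by 2.34 (1.198 to 0.221 CPM, at most 6 counts in a MIX library). Below the fold threshold, and named after their values were seen, *PIAS1* and the phosphatase *PTPN2* had an FDR under 0.01 on both scales, with log2 fold changes of 1.65 (174 to 531 CPM) and 1.58 (49.9 to 150 CPM). Both belong to families of negative regulators of STAT proteins. The arm of gp130 that runs through SHP2 and its adaptors (5 of 5 tested) had no DEG, with *GAB1*, also named after its values were seen, at 1.33 (58.0 to 147 CPM).

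Of 16 listed target genes of STAT3, 13 were tested, 3 fell and none rose past the thresholds, beside 16.8% and 4.27% of all genes. *CEBPB*, a transcription factor of the acute phase and of luteinising follicles, fell by 4.67 (2.33 to 0.077 CPM, at most 4 counts in a MIX library). *BCL6*, a transcriptional repressor, fell by 3.09 (1.04 to 0.110 CPM, at most 3 counts in a MIX library), and *NFIL3*, a bZIP repressor, fell by 2.69 (29.8 to 4.79 CPM). With an FDR under 0.01 by limma-voom and whatever the fold, 6 were lower and 2 higher. The 2, named after their values were seen, were *TIMP1* at 1.44 (1.52 to 4.68 CPM) and *PIM1* at 1.24 (11.2 to 27.7 CPM). On library sizes these were 0.53 and 0.36, with an FDR above 0.01. The median of this list was -0.47 on the log2 scale, beside -0.16 for all genes. The activity of STAT3 was not tested.

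Among 14 other cytokine genes, 3 were tested and 1 rose. *IL15*, a cytokine of natural killer cells, rose by 2.63 (SE 0.421) from 0.154 to 1.04 CPM, with 1.72 on library sizes, under the fold threshold. It had 2.45 to 4.91 counts in the GV and 10.3 to 26.2 in the MIX libraries. It thus passed the filter on low counts only through the matured libraries, where it was high, and its fold rests on few counts. No gene of the 7 lists was a DEG between MII and ‘damaged’ oocytes by limma-voom, and 0 of 48 had an unadjusted p under 0.05, beside 1.47% of all genes.

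**Figure D5:**
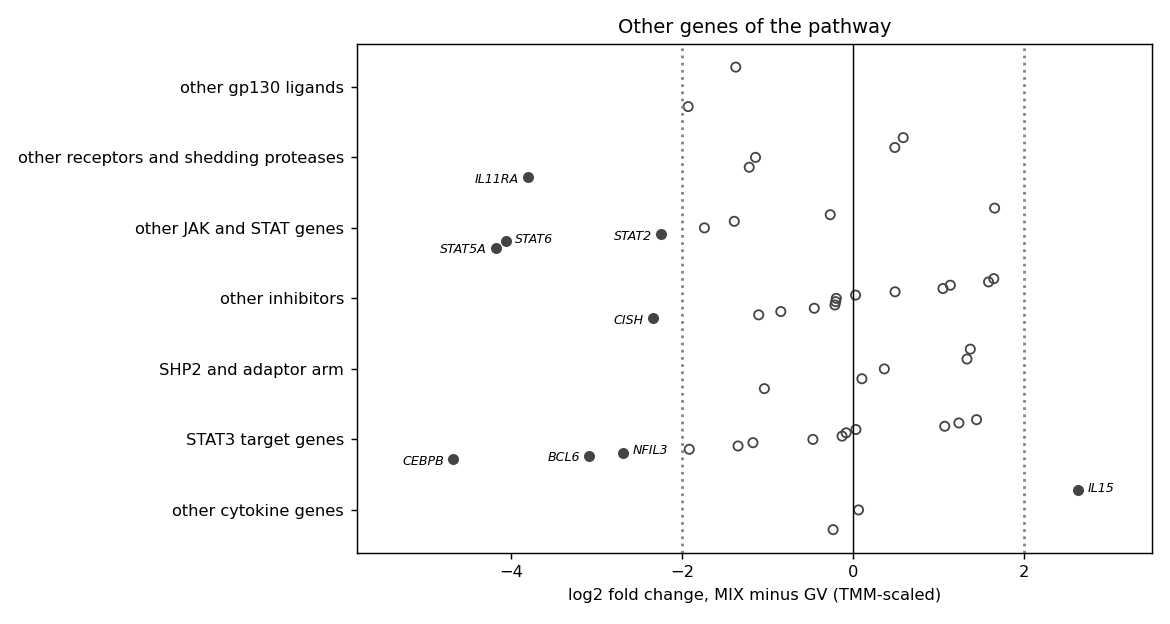
Log2 fold change of MIX over GV with TMM factors (x axis) for the 48 tested genes of 7 pathway lists (y axis); filled points are DEGs and dotted lines mark a change of 2. There are 8 filled points on the left, *CEBPB* at -4.67 farthest out, and 1 on the right, *IL15* at 2.63.

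The genes whose log2 level was most like that of *IL6* were named as a description, with no test. Over the 14 libraries these were *FGFR1OP2* (Pearson's r = 0.989), *SLC25A31* (0.988), *HSPBAP1* (0.988), *MANEA* (0.987) and *ESF1* (0.987). Over the 10 matured libraries alone they were *CPS1* (0.922), *LXN* (0.906), *SLC4A4* (0.901), *TRHR* (0.890) and *MANEA* (0.884). *MANEA*, which encodes an endomannosidase, was in both. All values come from the same libraries and share their scaling factors.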

How the data were processed

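RNAseq of pooled pig oocytes was used from 15 libraries (5 GV, 5 MII, 5 ‘damaged’), prepared with SMART-Seq HT and read single-end, with no spike-in named. The authors made the estimated counts and the TPM per transcript with Kallisto (version 0.43 in the submitters' processing notes) on Sscrofa11.1 transcripts, and the gene level estimated counts with tximport (lengthScaledTPM). The deposited counts were not normalized.

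Of the columns of the gene table, 8 matched the total of the library they name. The remaining 7 summed to the total of a differently labelled library and were set aside. The transcripts of 18953 of 18954 genes with a count were found from those 8 columns (tested on simulated data, 99.9% of genes), and the same formula then gave gene counts for every library from its transcript file, so results rest on the labels of those files. Gene positions came from RefSeq (Sscrofa11.1), matched by symbol for 9 of 10 members.

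limma 3.58.1 (voom, eBayes) was run in R 4.3.3 on 13230 genes left by filterByExpr of edgeR 4.0.16, with TMM factors, all 3 groups and no GV replicate 3. MIX is the mean of MII and ‘damaged’. FDRs are Benjamini-Hochberg values across the genes tested. On simulated counts, the MIX against GV and the MII against ‘damaged’ contrast each recovered 200 of 200 genes that were shifted by 3 on the log2 scale. These were drawn from the more abundant genes and given a single dispersion. Recovery of rare genes such as *IL6*, *IL6R* and *LIF*, or of smaller shifts, was not tested. The study describes independent collections that each gave all groups, and the labels name no animals. The p-values therefore measure the spread between pooled libraries taken as unpaired. Floors cover counting error only. Members and lists were chosen with earlier results of these data known. Named are all members, up to 3 DEGs per direction in each list, the 5 genes most like *IL6*, and the most abundant or undetected markers, with exceptions stated. Alternatives were other scalings (library sizes, DESeq2 1.42.0), edgeR, other filters, GV replicate 3 added, each library left out, a replicate block, summed counts and MIX as 1 group.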

Additional observations from a re-analysis of the deposited data

Results flagged for a closer look

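Among the 27 sets of 4 or 5 libraries examined, 3 groups for each of 9 members, 1 held a library far from the others. *IL6* in MII replicate 4 stood at 7.97 CPM while the other 4 MII libraries lay between 3.99 and 5.03 CPM, a gap to the nearest of 0.739 of the group's range. Chance alone gives such a gap in about 1 of 20 groups. Without any 1 library, the log2 fold change of *IL6* between MIX and GV lay between 4.10 and 4.403.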

How the results depend on the processing

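The log2 fold change of *IL6* was 4.25 with TMM factors and 3.35 on library sizes. On library sizes 1 member, *LIFR*, stood past the limits of a DEG downwards in place of 0, a count that tests nothing since the members were chosen partly for this difference. The same scaling gave 0 other pathway genes as upregulated and 16 as downregulated in place of 1 and 8, with *IL15* at 1.72. This scaling lowers every value by about the shift in the median of all genes. With a filter of 10 CPM in 4 libraries, *IL6* and other rare genes were not tested, which left 0 members and 0 other pathway genes upregulated and 4 downregulated. The share of the main *IL6ST* transcript changed by -5.23 points by estimated counts and by -10.31 points by TPM. The directions of *JAK1* and *STAT3*, which were near 0 on library sizes, are given with the results. Leaving out each library in turn changed no call of a member and left 8 to 9 other pathway genes downregulated.

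The labels do not say what a replicate number marks. The study describes independent collections that each gave oocytes of every group, without tying the numbers to them. The libraries were therefore treated as unpaired in the main fit, though a pairing by number was not excluded. Deviations from the group means correlated at -0.113 to 0.363 between libraries of the same number (13 pairs, median 0.072, 5 of them over 0.1). Between others they correlated at -0.318 to 0.330 (52 pairs, median -0.016), and 8 of 14 libraries correlated best with their own number. If the numbers mark collections, the unpaired p-values between MII and ‘damaged’ oocytes can be too large. With the replicate block the log2 fold changes were 4.31 for *IL6*, -1.39 for *LIFR*, 0.93 for *JAK1* and 0.84 for *STAT3*, and no member or other listed gene changed its call. Between MII and ‘damaged’ oocytes the smallest FDR of any gene over all alternatives was 0.0236, with this block, and *PIAS3* ranged from -0.56 to -0.28 with unadjusted p-values of 0.0216 and above. Depth limits *IL6* in GV, *IL6R*, *LIF* and *SOCS3*, whose counts were few.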

Other observations

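GV replicate 3, the library of lowest depth, entered only the alternative with all 5 GV libraries. Besides the levels given above, it had 1.05 CPM of *IL6R*, 171 CPM of *IL6ST*, 72.9 CPM of *JAK1*, 3.61 CPM of *JAK2*, 7.26 CPM of *PIAS3* and no count of *SOCS3*. Its ratio of *JAK1* to *IL6ST* in TPM, 0.550, lay within the range of the other GV libraries (0.368 to 0.798), and its ratio of *IL6* to *IL6R*, 3.41, lay above their range (0.519 to 1.34) and below that of MIX (11.7 to 51.5). Its oocyte markers summed to 7339 CPM, in the range of the MIX libraries.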
